A study of Mus musculus with 9 samples.

Results

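Named antisense long non-coding RNAs were followed through 3 stages of mouse spermatogenesis together with the protein-coding genes they are named after. Mouse nomenclature marks such a transcript with the ending os (opposite strand), sometimes with a digit, after the symbol of the sense gene. Of 50493 features in the deposited count table, 166 were RefSeq non-coding transcripts (NR_ rows) of 143 genes with such a symbol. The 75 transcripts with at least 10 counts in 3 or more of the 9 libraries were kept, and 91 fell below that minimum. They belong to 67 antisense genes and were compared with the rows of their 66 sense genes (Kcnmb4 has a pair of antisense genes). The third-highest count of the transcripts just inside the minimum was 10 (Fzd10os, Rbm3os and Tnk2os), and just outside it was 9.99 for Gad1os, 9 for Cdr1os and 8 for Bach2os.

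An antisense RNA is transcribed from the strand opposite a gene. Some start beside the promoter of the sense gene and run away from it, a head-to-head arrangement that allows a single open promoter region to serve both strands. Others start elsewhere and run through the body or the end of the sense gene, where the transcripts can overlap and, in studied cases, affect chromatin, splicing or RNA stability. The testis is known for a particularly broad output of long non-coding RNA, most of it in meiotic and post-meiotic germ cells.

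The libraries came from wild-type (WT) mouse testis: 3 from pachytene spermatocytes (PAC, cells in meiotic prophase), 3 from round spermatids (RS, the haploid cells made by meiosis) and 3 from elongating spermatids (ES, in which chromatin is compacted and the tail grows). No label names the strain, the age, the method of cell isolation or how many mice each library holds. The design text calls the replicates biological. Ribosomal RNA was depleted and dUTP kept the strand during library preparation, per the labels, but whether the counting used the strand is not stated. Where an antisense transcript and its sense gene overlap, their reads therefore cannot be told apart with certainty.

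Depth was 25141592 to 31174833 counts per library in PAC, 30238191 to 33801617 in RS and 22910156 to 24419245 in ES. Levels are given as CPM, counts scaled to library size with TMM factors, and a change was called when the edgeR quasi-likelihood test gave an adjusted p below 0.05 over all 26030 features tested. ES replicate 1 stood apart in composition, with a TMM factor of 0.758 beside 0.924 and 0.923 in the other ES libraries. The 13 elongating spermatid markers summed to 4472 to 5469 CPM in PAC, 21019 to 23538 in RS and 54429 to 88318 in ES, and the 17 pachytene markers to 4087 to 4361, 2507 to 2538 and 2617 to 2704. From RS to ES, 7 pachytene markers were called higher and 2 lower. The 13 round spermatid markers summed to 1598 to 1770 CPM in PAC, and their sums overlapped between RS (3990 to 4347) and ES (4022 to 5008). Of them, 10 were called lower in ES than in RS and 1 higher. Of the somatic lists, the Sertoli cell markers summed to 66.6 to 163 CPM in PAC, 56.4 to 62.5 in RS and 463 to 549 in ES. The Leydig cell markers summed to 97.8 to 130, 3.23 to 3.73 and 29.0 to 36.1 CPM, and the macrophage and blood markers to 10.3 to 14.6, 21.6 to 25.6 and 156 to 240. In such bulk samples, fewer cells of a type and less RNA per cell cannot be told apart.

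In the RefSeq annotation of GRCm38.p6, 26 antisense genes (30 transcripts) lay head to head with the sense gene, with opposite strands and nearest start sites no more than 1000 bp apart. This class was set by strand and start distance alone. It includes genes that start within the span of the sense gene and overlap it, such as Dgkeos, Lyzl4os and Stk35os1. The nearest starts of the 26 pairs were 3 bp apart at the closest and 118 bp at the median, and 19 of the 26 were within 200 bp. A further 32 genes (35 transcripts) overlapped the sense gene but started farther away. The other arrangements were rare: 4 genes (5 transcripts) were tail to tail without overlap, 4 diverged from a distant start, and the strand of Fzd10os was not known. In all, 43 antisense genes overlapped the span of the sense gene and 22 lay inside it. Of the 63 pairs with exons of both partners in GENCODE M21, 29 shared exon bases and 34 shared none. Chromosomes 2 and 11 carried 13 of the antisense genes each.

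RefSeq promoter windows on GRCm38.p6 are printed for 6 head-to-head antisense genes, 3 whose transcripts were higher in RS than in PAC (Dgkeos, Lyzl4os and Saxo1os) and 3 whose transcripts were lower (Cep83os, Mkln1os and Etaa1os). Each window is read 5′ to 3′ on the antisense strand and holds 250 bases before and 50 bases from the antisense start. Capitals run from the nearest start of the sense gene to the start of the antisense gene, so they mark the stretch between the diverging starts. The windows are chr11:89060501-89060800 (plus strand) for Dgkeos, chr9:121586770-121587069 (plus) for Lyzl4os and chr4:86558194-86558493 (plus) for Saxo1os. They are chr10:94688564-94688863 (minus) for Cep83os, chr6:31398724-31399023 (minus) for Mkln1os and chr11:17953720-17954019 (plus) for Etaa1os.
Dgkeos: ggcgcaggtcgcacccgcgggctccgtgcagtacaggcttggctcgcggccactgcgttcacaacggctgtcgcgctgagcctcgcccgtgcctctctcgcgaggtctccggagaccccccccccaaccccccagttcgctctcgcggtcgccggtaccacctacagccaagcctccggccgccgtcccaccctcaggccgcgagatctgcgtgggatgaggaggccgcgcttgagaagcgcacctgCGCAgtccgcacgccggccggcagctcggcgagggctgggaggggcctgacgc
Lyzl4os: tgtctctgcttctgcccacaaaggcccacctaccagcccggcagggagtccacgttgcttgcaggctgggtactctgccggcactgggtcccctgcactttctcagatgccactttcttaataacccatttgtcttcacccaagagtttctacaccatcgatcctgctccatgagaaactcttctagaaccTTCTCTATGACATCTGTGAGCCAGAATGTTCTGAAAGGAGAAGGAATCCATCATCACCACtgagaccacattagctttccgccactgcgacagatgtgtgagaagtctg
Saxo1os: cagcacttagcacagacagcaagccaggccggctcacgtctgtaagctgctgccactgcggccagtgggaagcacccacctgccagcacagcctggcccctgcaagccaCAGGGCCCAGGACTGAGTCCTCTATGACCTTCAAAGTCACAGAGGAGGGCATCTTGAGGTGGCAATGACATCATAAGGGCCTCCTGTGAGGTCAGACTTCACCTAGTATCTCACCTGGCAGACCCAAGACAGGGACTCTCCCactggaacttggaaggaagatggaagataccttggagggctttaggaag
Cep83os: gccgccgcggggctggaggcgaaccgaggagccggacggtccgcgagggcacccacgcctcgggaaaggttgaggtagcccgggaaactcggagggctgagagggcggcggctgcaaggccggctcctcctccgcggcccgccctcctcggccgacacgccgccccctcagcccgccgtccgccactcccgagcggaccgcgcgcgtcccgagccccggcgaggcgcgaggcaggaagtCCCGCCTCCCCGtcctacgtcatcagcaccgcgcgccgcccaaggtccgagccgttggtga
Mkln1os: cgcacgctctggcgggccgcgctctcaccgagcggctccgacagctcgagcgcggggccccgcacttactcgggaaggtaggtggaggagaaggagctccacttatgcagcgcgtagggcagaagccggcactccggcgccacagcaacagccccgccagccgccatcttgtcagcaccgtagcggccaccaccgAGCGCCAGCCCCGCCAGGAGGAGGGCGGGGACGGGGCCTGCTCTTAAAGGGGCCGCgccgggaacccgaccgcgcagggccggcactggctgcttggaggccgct
Etaa1os: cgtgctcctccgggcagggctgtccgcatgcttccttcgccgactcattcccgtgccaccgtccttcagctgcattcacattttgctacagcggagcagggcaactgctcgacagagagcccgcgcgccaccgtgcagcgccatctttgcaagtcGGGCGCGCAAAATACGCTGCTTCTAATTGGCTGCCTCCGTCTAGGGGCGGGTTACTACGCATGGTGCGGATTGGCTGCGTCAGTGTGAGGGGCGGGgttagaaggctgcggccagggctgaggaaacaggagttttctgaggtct

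The nearest starts of Dgkeos and Dgke were 3 bp apart, and those of Cep83os and Cep83 11 bp. They were 55 bp apart for Mkln1os and Mkln1 and 59 bp for Lyzl4os and Lyzl4. For Etaa1os and Etaa1 they were 95 bp apart, and for Saxo1os and Saxo1 141 bp. The Lyzl4 start used here lies inside the span of Lyzl4. The windows of Cep83os, Dgkeos, Mkln1os and Etaa1os held 46, 38, 35 and 25 CpG dinucleotides. Those of Lyzl4os and Saxo1os held 6 and 3, below the median of 7 over the windows of 27025 genes.

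Per kilobase, the antisense transcripts were mostly low. Their mean FPKM had a median of 1.71 in PAC, 2.04 in RS and 1.15 in ES, against 4.78, 3.91 and 2.68 for the sense genes. FPKM carries no TMM scaling, so its levels compare genes within a library, and its differences between stages can depart from those in CPM. Of the 75 antisense transcripts, 41 in PAC, 46 in RS and 41 in ES averaged at least 1 FPKM. The antisense transcript was nonetheless above its sense gene in all 3 libraries in 19 of 75 pairs in PAC, 28 in RS and 27 in ES. Med9os, head to head with the Mediator subunit gene Med9, had the highest mean level of the set, at 198, 178 and 148 FPKM in PAC, 217, 213 and 179 in RS and 138, 110 and 110 in ES. Med9 itself was at 18.0, 16.5 and 15.9, then 15.2, 13.5 and 12.5, then 5.80, 7.63 and 8.08 FPKM. Every library thus held more Med9os than Med9 per kilobase, and no change of Med9os was called (edgeR adjusted p = 0.467, 0.0886 and 0.24 for RS against PAC, ES against RS and ES against PAC).

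Kcnmb4os1 lies at the far end of Kcnmb4, which encodes an accessory subunit of the large-conductance calcium-activated potassium channel. It was almost level across the stages, at 116 ± 17 FPKM in PAC, 130 ± 3.70 in RS and 109 ± 12.1 in ES (SD, n = 3), and no change was called. Kcnmb4 was at 93.2 ± 12.6, 72.6 ± 5.47 and 57.2 ± 3 FPKM (SD, n = 3). In CPM, with TMM scaling, Kcnmb4 did not fall from RS to ES, at 60.8 ± 4.09 and 60.7 ± 9.48 (SD, n = 3, edgeR adjusted p = 0.998). The second antisense gene, Kcnmb4os2, lies head to head with Kcnmb4 and was far lower, at 4.55 ± 0.937, 2.92 ± 0.429 and 2.58 ± 0.504 FPKM (SD, n = 3). Frs3os, which overlaps the gene of the fibroblast growth factor receptor adaptor Frs3, was likewise steady, its NR_045912.1 row being at 42.2 ± 3.83, 55.6 ± 2.86 and 38.4 ± 3.44 FPKM (SD, n = 3). Frs3 was at 40.4 ± 12.1 FPKM in PAC, 3.49 ± 0.362 in RS and 6.67 ± 1.31 in ES, and its fall from PAC to RS had a log2 fold change of -3.66 (SE 0.23, edgeR adjusted p = 2.73e-07). For Frs3 and Frs3os, which share 509 exon bases, a steep change of the sense gene stood beside none called for the antisense transcript.

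**Figure D1:**
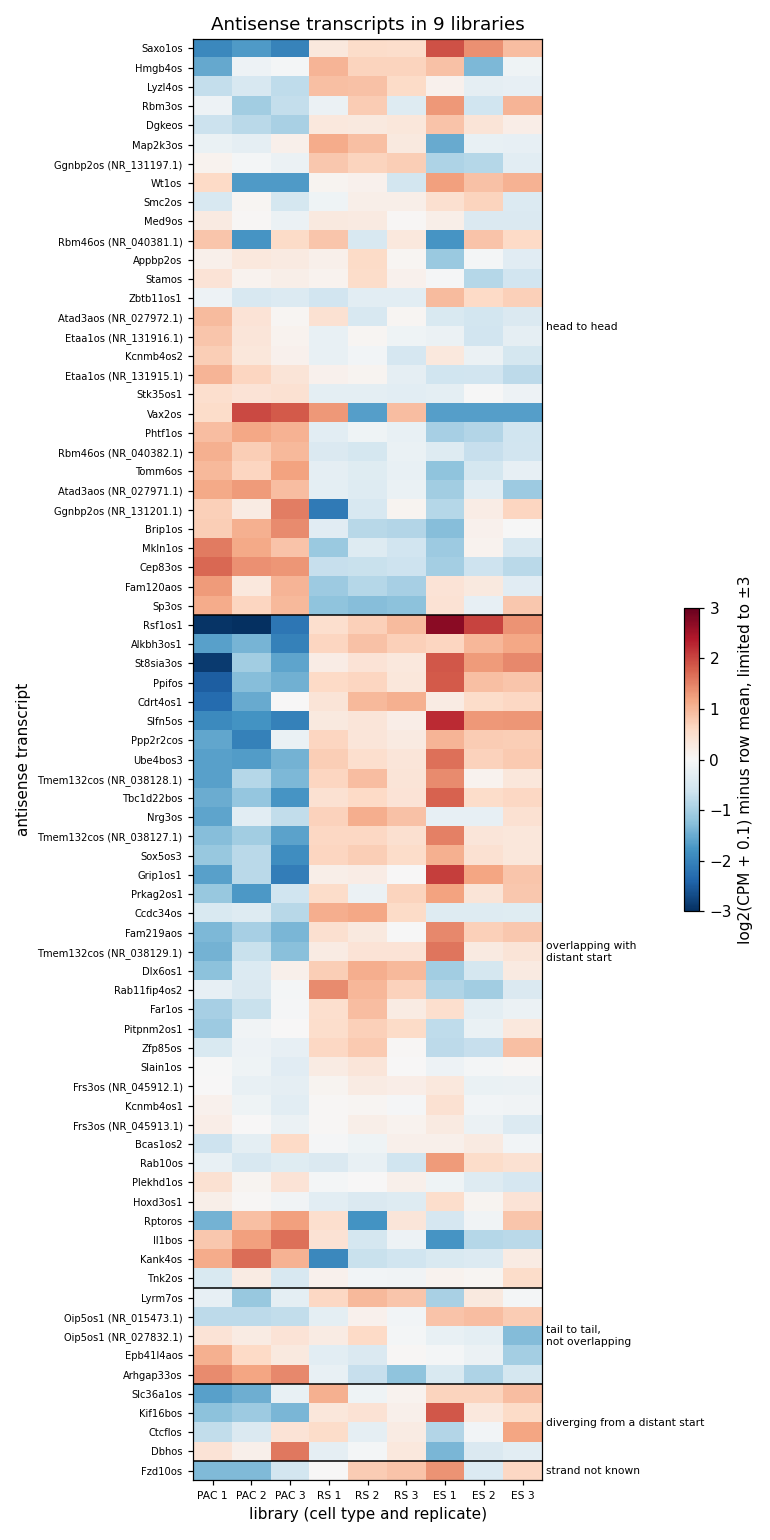
Level of each of the 75 antisense transcripts (rows, grouped by arrangement with the sense gene and ordered by the change from PAC to RS) in the 9 libraries (columns). Colour is log2(CPM + 0.1) minus the mean of the row, limited to ±3, red above and blue below. The lower head-to-head rows are red in PAC, and the upper rows that overlap the sense gene from a distant start are blue in PAC and red in RS and ES.

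Between PAC and RS, 29 of the 73 antisense transcripts tested were higher in RS and 18 were lower, with a median log2 fold change of 0.38. Over all features tested, 38.2% were called higher and 34.2% lower, with a median of 0.11. The antisense shares, 39.7% higher and 24.7% lower, were thus near the general share for higher calls and below it for lower ones. Other NR_ rows with a symbol, 972 tested, gave 44.1% higher and 28% lower. The sense genes leaned the other way, with 15 of 60 higher and 26 lower and a median of -0.29, close to the 26.3% and 46.9% of 14836 protein-coding genes. These splits depend on scaling: upper-quartile factors moved the median of all features to 0.42 and gave 35 higher and 12 lower antisense transcripts, and 23 higher and 17 lower sense genes.

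The calls differed in number by arrangement with the sense gene. Of the 30 head-to-head transcripts, 13 were lower in RS and 4 higher, with a median log2 fold change of -0.54. Of the 34 tested transcripts that overlap the sense gene from a distant start, 21 were higher and 3 lower, with a median of 1.52. The sense genes did not part in this way: 5 of 26 in head-to-head pairs were higher and 14 lower, against 9 of 29 higher and 12 lower in overlapping pairs. NR_ rows without an os name gave the same order against their nearest protein-coding gene. There, 59 of 223 head-to-head rows were higher and 86 lower, against 107 higher and 57 lower of 217 overlapping rows. Rows on the same strand as that gene (120 higher and 60 lower of 255) and in other positions (134 and 62 of 255) also had more higher than lower calls. With a start distance limit of 200 bp in place of 1000 bp, a limit chosen after the data were seen, 10 head-to-head transcripts were lower and 4 higher, and 21 overlapping ones were higher and 6 lower. With 5000 bp, the counts were 15 lower and 6 higher against 20 higher and 1 lower. The difference between the arrangements was not tested, and some head-to-head transcripts also overlap their sense gene.

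Among the head-to-head transcripts that fell was Cep83os. Cep83 encodes a distal appendage protein of the centriole that is needed to build cilia. Cep83os was at 319, 251 and 243 CPM in PAC, 60.2, 61.1 and 62.4 in RS and 47.3, 62.6 and 54.8 in ES. Every PAC library was well above every spermatid library, and the fall to RS had a log2 fold change of -2.15 (SE 0.15, edgeR adjusted p = 6.49e-07). Cep83, starting 11 bp away, was at 63.7, 86.1 and 120 CPM in PAC, 120, 112 and 112 in RS and 96.7, 118 and 149 in ES, its groups overlapped, and no change was called (edgeR adjusted p = 0.161 for RS against PAC). The log2 ratio of Cep83os to Cep83 FPKM went from 1.18 ± 0.65 in PAC to -1.37 ± 0.09 in RS and -1.60 ± 0.27 in ES (SD, n = 3). With 3 libraries against 3, an exact permutation test of such a ratio cannot go below p = 0.1, so the ratios are given as descriptions.

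Mkln1os fell together with Mkln1, the gene of muskelin, a subunit of the CTLH ubiquitin ligase. Mkln1os was at 4.98, 3.65 and 2.99 CPM in PAC, 0.693, 1.20 and 1.05 in RS and 0.703, 1.73 and 1.14 in ES. Mkln1 was at 89.2, 81.6 and 76.2, then 36.8, 40.2 and 40.4, then 40.2, 51.3 and 39.6 CPM. Both were higher in every PAC library than in any spermatid library. From PAC to RS the log2 fold change was -1.97 for Mkln1os (SE 0.35, edgeR adjusted p = 0.000415) and -1.07 for Mkln1 (SE 0.14, edgeR adjusted p = 4.68e-05).

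Etaa1os and Etaa1, whose protein activates the ATR kinase at stalled replication forks, also fell together. The more abundant row, NR_131915.1, was at 34.6, 26.8 and 22.3 CPM in PAC, 18.6, 18.1 and 14.2 in RS and 11.2, 11.4 and 9.84 in ES. Here the antisense transcript was the larger of the pair: its log2 FPKM ratio to Etaa1 stood at 4.77 ± 0.57 in PAC, 5.45 ± 0.44 in RS and 4.87 ± 0.58 in ES (SD, n = 3). Its log2 fold change from PAC to RS was -0.72 (SE 0.19, edgeR adjusted p = 0.00448), and the call was lost with upper-quartile factors (adjusted p = 0.0745). That of Etaa1 was -1.46 (SE 0.28, edgeR adjusted p = 0.000682).

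Other head-to-head transcripts fell from PAC to RS together with their sense gene. Rbm46os (NR_040382.1) went from 19.5 ± 2.16 CPM in PAC to 7.79 ± 0.917 in RS, and Rbm46, a germ cell RNA-binding protein required for meiosis, from 52.1 ± 9.69 to 18.3 ± 1.34 (SD, n = 3). Phtf1os went from 2.99 ± 0.258 to 1.20 ± 0.0843 CPM, and Phtf1, a membrane protein gene known for its testis expression, from 210 ± 9.46 to 120 ± 2.69 (SD, n = 3). Atad3aos (NR_027971.1) went from 1.66 ± 0.216 to 0.557 ± 0.0454 CPM, and Atad3a, an ATPase of mitochondrial membranes, from 11.4 ± 2.74 to 5.07 ± 0.896 (SD, n = 3). All 6 changes were called, with edgeR adjusted p from 2.99e-05 to 0.00176. Tomm6os and Tomm6, of the mitochondrial import complex, and Sp3os and Sp3, a zinc finger transcription factor, fell as pairs as well. The Tomm6os window, chr17:47687360-47687659 (plus), also holds the start of Frs3 at 47687607 on the same strand. Frs3 fell from PAC to RS too (log2 fold change -3.66, SE 0.23, edgeR adjusted p = 2.73e-07). Whether the fall of Tomm6os goes with Tomm6 or with Frs3 was not tested.

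Fam120aos fell and recovered with Fam120a, which encodes an RNA-binding scaffold protein. Fam120aos was at 1.68, 0.804 and 1.37 CPM in PAC, 0.241, 0.300 and 0.263 in RS and 0.865, 0.799 and 0.473 in ES. Fam120a was at 3.48, 5.19 and 5.26, then 1.69, 0.792 and 0.555, then 2.43, 3.73 and 5.02 CPM. RS was the lowest stage for both, with no RS library reaching a PAC or ES library. The falls to RS were -2.24 for Fam120aos (SE 0.42, edgeR adjusted p = 0.000609) and -2.20 for Fam120a (SE 0.40, edgeR adjusted p = 0.000511) on the log2 scale. The rise of Fam120aos from RS to ES, 1.39 (SE 0.44, edgeR adjusted p = 0.0224), lost its call when any RS library, ES replicate 1 or ES replicate 2 was left out. With limma on FPKM that rise was not called either (limma adjusted p = 0.062).

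The 4 head-to-head transcripts that rose in RS were Saxo1os, Lyzl4os, Dgkeos and Ggnbp2os. Saxo1 encodes a protein that stabilises axonemal microtubules. Saxo1os was at 5.29, 6.22 and 5.03 CPM in PAC, 25.5, 30.1 and 29.5 in RS and 77.1, 52.4 and 38.7 in ES, rising at each step with no overlap. Its log2 fold change was 2.37 from PAC to RS (SE 0.23, edgeR adjusted p = 5.44e-06) and 0.98 from RS to ES (SE 0.22, edgeR adjusted p = 0.0034). Saxo1 rose from 12.9 ± 3.99 CPM in PAC to 30.6 ± 4.67 in RS and was at 29.5 ± 8.53 in ES (SD, n = 3).

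Lyzl4os and Lyzl4, a testis gene of the lysozyme-like family, had nearly the same profile. Lyzl4os starts within the span of Lyzl4 (chr9:121577841-121642121), 59 bp from its nearest annotated start. Where the genes overlap, their reads cannot be told apart with certainty. Lyzl4os was at 17.3, 20.1 and 16.5 CPM in PAC, 53.2, 52.1 and 42.3 in RS and 30.8, 23.6 and 23.8 in ES. Lyzl4 was at 37.5, 45.9 and 39.0, then 131, 140 and 133, then 60.2, 63.0 and 54.4 CPM. RS was the highest stage for both, and the 3 groups did not overlap in either. The log2 fold changes of Lyzl4os and Lyzl4 were 1.45 and 1.72 from PAC to RS and -0.92 and -1.19 from RS to ES, with edgeR adjusted p from 1e-06 to 0.000773. Their log2 FPKM ratio stood at -0.74 ± 0.07 in PAC, -1.02 ± 0.17 in RS and -0.76 ± 0.21 in ES (SD, n = 3).

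Dgkeos went against its sense gene although their starts lie 3 bp apart. Dgke encodes diacylglycerol kinase epsilon, which phosphorylates the signalling lipid diacylglycerol. Dgkeos, at chr11:89060751-89067884, was at 37.3, 33.3 and 29.3 CPM in PAC, 72.1, 71.3 and 73.8 in RS and 105, 75.6 and 66.9 in ES. Dgke was at 21.4, 18.4 and 14.6, then 2.80, 2.62 and 2.16, then 5.62, 4.93 and 4.40 CPM. PAC was the lowest stage for Dgkeos and the highest for Dgke, without overlap. From PAC to RS Dgkeos had a log2 fold change of 1.12 (SE 0.17, edgeR adjusted p = 0.00015) and Dgke one of -2.84 (SE 0.21, edgeR adjusted p = 7.53e-07). The log2 FPKM ratio of Dgkeos to Dgke went from 3.61 ± 0.13 to 7.28 ± 0.21 and was 6.48 ± 0.10 in ES (SD, n = 3), and the pair shares 100 exon bases.

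Of the transcripts that overlap their sense gene from a distant start, Rsf1os1, inside the gene of the chromatin remodelling factor Rsf1 at chr7:97598349-97645112, had the largest rise among the called transcripts. It was at 0.467, 0.402 and 0.865 CPM in PAC, 6.03, 6.96 and 8.21 in RS and 28.1, 17.6 and 10.9 in ES. Rsf1 was at 10.4, 12.1 and 20.9, then 10.8, 11 and 13.1, then 15.2, 18.4 and 20.0 CPM. The antisense transcript rose at each step without overlap, by 3.61 (SE 0.40, edgeR adjusted p = 1.44e-05) and 1.41 (SE 0.32, edgeR adjusted p = 0.00433) on the log2 scale, and no change of Rsf1 was called (edgeR adjusted p = 0.263, 0.0573 and 0.291).

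Slfn5os, antisense to a member of the Schlafen family, rose at both steps as well. It was at 2.61, 2.80 and 2.38 CPM in PAC, 12.4, 12.9 and 11.5 in RS and 47.7, 25 and 25.2 in ES. Slfn5 was at 0.579, 0.368 and 0.840, then 2.49, 1.92 and 2.59, then 1, 1.16 and 1.19 CPM. Both rose from PAC to RS, by 2.24 (SE 0.25, edgeR adjusted p = 1.47e-05) and 1.96 (SE 0.33, edgeR adjusted p = 0.00029) on the log2 scale. From RS to ES Slfn5os rose by 1.41 (SE 0.24, edgeR adjusted p = 0.000546) while Slfn5 changed by -1.05 (SE 0.32, edgeR adjusted p = 0.0192), a call lost without RS replicate 1 or 3. They share 559 exon bases, and the log2 FPKM ratio of Slfn5os to Slfn5 was 5.33 ± 0.49, 5.60 ± 0.25 and 7.98 ± 0.77 (SD, n = 3).

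Sox5os3, Grip1os1, Alkbh3os1 and Cdrt4os1 rose from PAC to RS with sense genes that rose too. Sox5os3 went from 12 ± 4.19 to 43.7 ± 3.04 CPM and Sox5, a transcription factor gene with a germ cell isoform, from 111 ± 15 to 312 ± 35.7 (SD, n = 3). The partners then parted, with Sox5os3 at 44.0 ± 12.5 CPM in ES (edgeR adjusted p = 0.978 against RS) and Sox5 down to 128 ± 5.97 (SD, n = 3, edgeR adjusted p = 3.54e-05). Grip1os1 went from 0.707 ± 0.366 CPM in PAC to 2.26 ± 0.170 in RS and 5.83 ± 2.79 in ES, and Grip1, a PDZ scaffold gene, from 23.8 ± 7.59 to 78.8 ± 1.49 and 119 ± 17.5 (SD, n = 3). The step of Grip1os1 from RS to ES (edgeR adjusted p = 0.0113) was not called without ES replicate 1. Alkbh3os1 went from 0.246 ± 0.0729 CPM in PAC to 1.74 ± 0.147 in RS, beside Alkbh3, a demethylase of alkylated nucleic acids, at 26.9 ± 2.28 and 47.2 ± 2.47 (SD, n = 3). Cdrt4os1 reached only 0.784 ± 0.211 CPM in RS from 0, 0.0731 and 0.396 in PAC, while Cdrt4 went from 63.2 ± 14.4 to 401 ± 24.5 (SD, n = 3), and the call of Cdrt4os1 was lost on leaving out PAC replicate 2 or either of RS replicates 2 and 3.

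Ppifos rose while its sense gene fell. Ppif encodes cyclophilin D, a regulator of the mitochondrial permeability transition, and the genes share 921 exon bases. Ppifos was at 0.218, 0.621 and 0.541 CPM in PAC, 2.56, 2.65 and 2.13 in RS and 6.22, 3.15 and 3.03 in ES. Ppif was at 1.71, 2.19 and 1.62, then 0.542, 0.246 and 0.438, then 0.216, 0.488 and 1.23 CPM. The antisense transcript was the lower partner per kilobase in every PAC library and the higher in every RS and ES library. From PAC to RS the log2 fold change was 2.42 for Ppifos (SE 0.41, edgeR adjusted p = 0.000274) and -2.17 for Ppif (SE 0.52, edgeR adjusted p = 0.00288). The lower level of Ppif in ES than in PAC (edgeR adjusted p = 0.0236) was not called on leaving out PAC replicate 2 or either of ES replicates 1 and 2. Nor was it called with upper-quartile factors (edgeR adjusted p = 0.0591) or in a fit of those 2 cell types alone (0.0537).

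Ube4bos3 and Tbc1d22bos also rose against their sense genes. Ube4bos3, within the gene of the ubiquitin chain elongation factor Ube4b, was at 5.47, 5.34 and 6.41 CPM in PAC, 28.5, 24.3 and 22.1 in RS and 54.2, 27.9 and 29.7 in ES. Ube4b was at 10.3, 14.2 and 17, then 7.44, 7.92 and 6.75, then 10.8, 10.8 and 10.2 CPM. From PAC to RS the log2 fold changes were 2.12 (SE 0.25, edgeR adjusted p = 1.89e-05) and -0.91 (SE 0.19, edgeR adjusted p = 0.00132), and the groups did not overlap for either gene. Tbc1d22bos went from 5.62 ± 1.22 CPM in PAC to 21.9 ± 1.44 in RS and 33.5 ± 17.4 in ES, with 53.6 CPM in ES replicate 1 beside 23.0 and 24.1 (SD, n = 3). Tbc1d22b, with a domain of Rab GTPase-activating proteins, was at 16.3 ± 4.89, 13.7 ± 1.55 and 9.93 ± 3.33 CPM (SD, n = 3), and its fall from PAC to ES (edgeR adjusted p = 0.0327) lost its call on leaving out PAC replicate 3 or either of ES replicates 1 and 2. That fall was also not called with upper-quartile factors (edgeR adjusted p = 0.179), a filter of 50 counts (0.0549) or a fit of those 2 cell types alone (0.150).

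Of the 3 overlapping transcripts that fell in RS, Kank4os, Il1bos and Hoxd3os1, Kank4os fell the most. The call of Il1bos (edgeR adjusted p = 0.0286) was lost without PAC replicate 2 or 3 or RS replicate 2 or 3, and with upper-quartile factors (adjusted p = 0.066) and with no filter (0.0502). Kank4os was at 1.46, 2.23 and 1.41 CPM in PAC, 0.0904, 0.355 and 0.380 in RS and 0.432, 0.444 and 0.757 in ES, with a log2 fold change of -2.60 from PAC to RS (SE 0.49, edgeR adjusted p = 0.000597). Its sense gene Kank4 was too low to test, at 0 to 0.180 CPM in PAC, 0.0603 to 0.218 in RS and 0.0946 to 0.400 in ES.

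**Figure D2:**
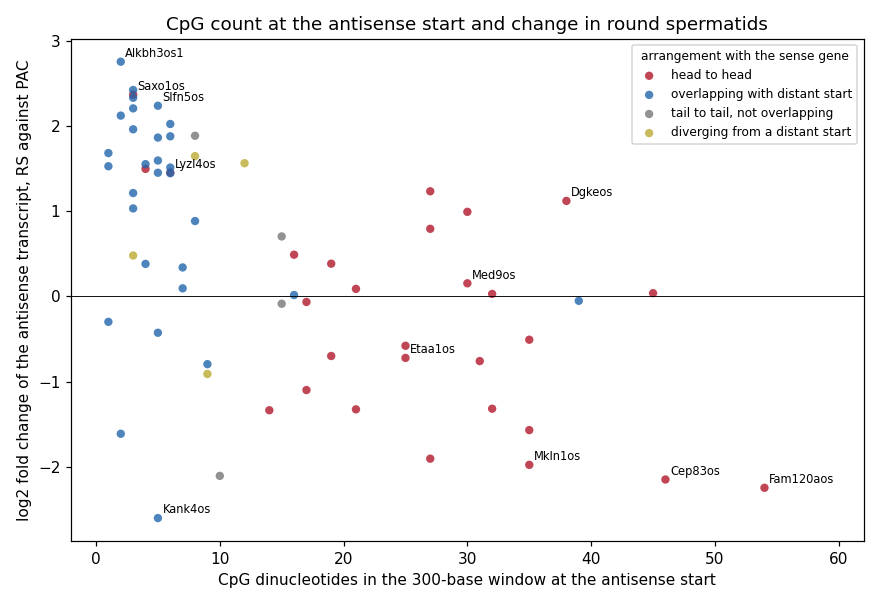
Change of each antisense transcript from PAC to RS (log2 fold change, vertical axis) against the number of CpG dinucleotides in the 300-base RefSeq window at its gene's start (horizontal axis), coloured by arrangement, for genes with a window. Transcripts above 2 on the vertical axis have few CpG, and most head-to-head points lie to the right, on both sides of 0.

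The start windows of the antisense genes differed in CpG content by arrangement. A RefSeq window was found for 59 antisense and 54 sense genes. The median CpG count was 27.0 in the 24 head-to-head windows (3 to 54), 4.5 in the 28 windows of overlapping genes (1 to 39) and 24.0 at the sense genes, against 7.0 over all 27025 genes. Of the 24 head-to-head windows, 14 hold the start of the sense gene and share CpG with its promoter, and 10 do not, that of Rbm46os lying at a start far from Rbm46. By the call between PAC and RS, the median was 5.0 CpG for the 24 genes with a higher transcript and 23.0 for the 14 with a lower transcript. It was 16.5 for the 24 with a transcript not called. Atad3aos, Ggnbp2os, Oip5os1 and Rbm46os, whose rows had different calls, each count in more than 1 of these groups. Within the head-to-head genes it was 16.5 for 4 higher and 31.5 for 10 lower genes, and within the overlapping genes 3.0 for 16 higher and 5.0 for 3 lower genes.

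Motifs were searched on both strands of these 300-base windows, and none of the searched letter strings contains another. AACGG, the core bound by MYB proteins such as the meiotic regulator MYBL1, was in 13 of 59 antisense windows (22.0%) and 17.7% of all windows, and GTTGCC, part of an RFX site, in 11 (18.6%) and 12.7%. The cAMP response element TGACGTCA was in 2 antisense windows (3.4%) and 1.9% of all, the TATA box TATAAA in 2 (3.4%) and 14.2%, and CCAAT in 22 (37.3%) and 37.9%. The NRF1 consensus was in none of the 59 and in 1.0% of all. Of the printed windows, those of Dgkeos and Cep83os each hold 1 AACGG match, and that of Etaa1os holds 1 GTTGCC and 2 CCAAT matches.

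Pair by pair, 19 of the 68 pairs with both partners tested were called in the same direction between PAC and RS, 9 upward and 10 downward, and 10 in opposite directions. Those shares, 27.9% and 14.7%, are near or below those of 832 other NR_ rows and their nearest protein-coding gene, 32.1% in the same direction and 21% in opposite directions. In 7 of the 10 opposed pairs the antisense transcript was the one that rose. The other NR_ rows were alike, the NR_ row being the one that rose in 128 of 175 opposed pairs. Of 30 head-to-head pairs, 12 moved together, 10 of them downward, and 3 moved in opposite directions. Of 31 overlapping pairs, 6 moved together, all of them upward, and 6 in opposite directions. In 15 further pairs only the antisense transcript was called, in 17 only the sense gene and in 7 neither. Across the 68 pairs, which share the libraries, the Spearman correlation of the log2 fold changes was 0.34 between PAC and RS. From RS to ES, 5 pairs were called in the same direction and 1 in opposite directions, against 11.3% and 9.01% of the other NR_ rows, and from PAC to ES 16 and 10 pairs, against 26.4% and 16.8%.

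**Figure D3:**
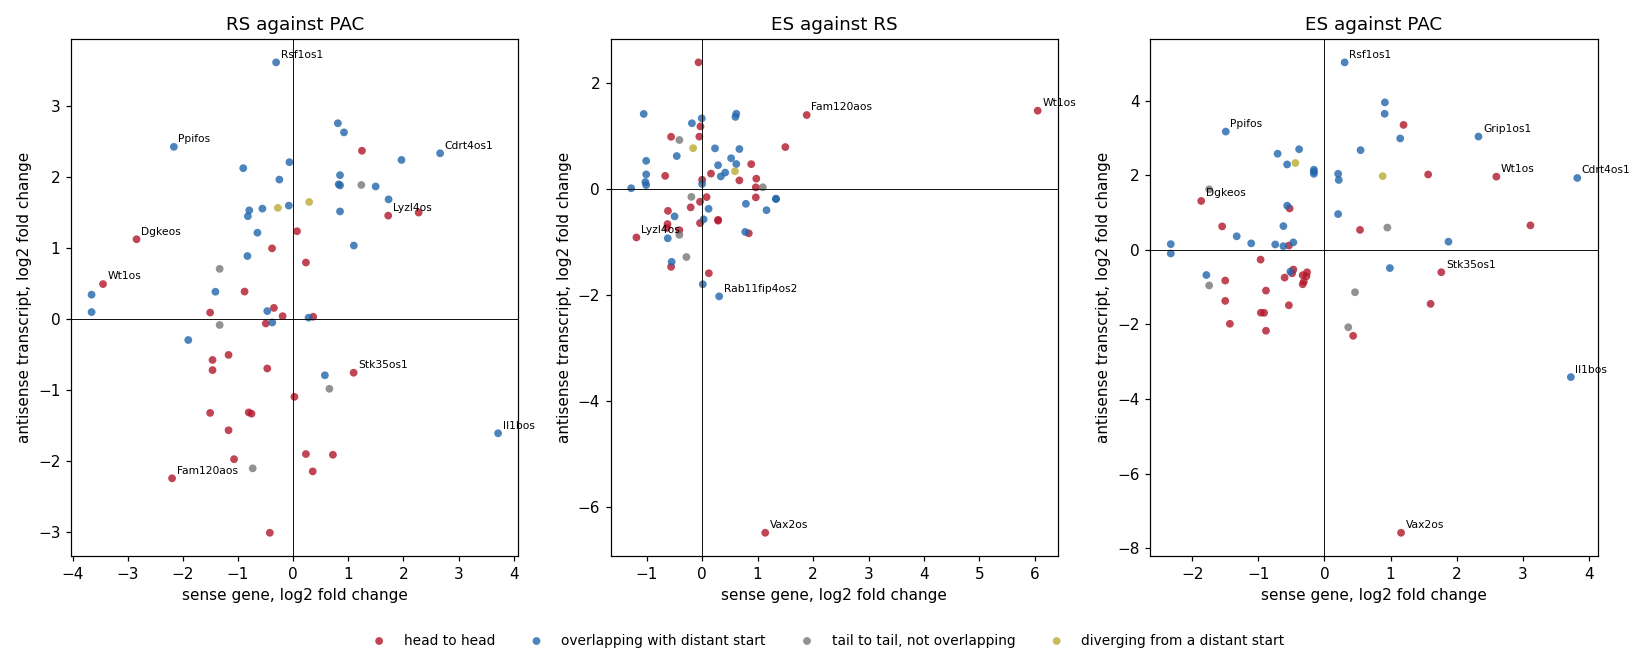
Log2 fold change of each antisense transcript (vertical axis) against that of its sense gene (horizontal axis) in the 3 comparisons, 68 pairs in each, coloured by arrangement. Points fall in all 4 quadrants, with Ppifos and Dgkeos upper left, Il1bos and Stk35os1 lower right, and Cdrt4os1 upper right in the panels of RS or ES against PAC. The ES libraries held no count of Vax2os, so the size of its fold change in ES against RS and in ES against PAC is not fixed by the counts.

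Over the 3 comparisons, 15 pairs were called in opposite directions at least once and 25 in the same direction, counted by transcript. Opposed calls of 7 pairs were kept in every alternative fit in at least 1 comparison: Brip1os, Dgkeos, Il1bos, Oip5os1, Ppifos, Stk35os1 and Ube4bos3. Stk35os1 and Stk35, a serine/threonine kinase gene, moved apart in a pair expressed in every library. The pair is classed head to head, but the Stk35os1 start window (chr2:129801410-129801709, minus) lies within the span of Stk35 (129800517-129832287). Where they overlap, their reads cannot be told apart with certainty. Stk35os1 was at 126, 117 and 122 CPM in PAC, 72.1, 72.4 and 71.0 in RS and 72.6, 87.7 and 80.3 in ES. Stk35 was at 70.9, 68.5 and 78.2, then 149, 161 and 156, then 336, 197 and 208 CPM. PAC was the highest stage for the antisense transcript and the lowest for the sense gene, without overlap. The log2 fold changes from PAC to RS were -0.76 (SE 0.12, edgeR adjusted p = 0.000174) and 1.10 (SE 0.19, edgeR adjusted p = 0.000316). The lower Stk35os1 level in ES than in PAC (edgeR adjusted p = 0.000954) was not called in a fit of those 2 cell types alone (adjusted p = 0.058).

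Brip1os fell while Brip1, a helicase gene of the Fanconi anaemia pathway, rose through both steps. Brip1os was at 1.84, 2.30 and 2.99 CPM in PAC, 0.814, 0.546 and 0.526 in RS and 0.378, 1.15 and 1.04 in ES. Brip1 was at 7.06, 8.15 and 7.46, then 12.2, 12.6 and 12.5, then 24.8, 26 and 18.2 CPM. PAC was apart from both spermatid stages in each. From PAC to RS the log2 fold change was -1.91 for Brip1os (SE 0.40, edgeR adjusted p = 0.00126) and 0.72 for Brip1 (SE 0.17, edgeR adjusted p = 0.00246).

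Oip5os1, known as Cyrano, a conserved lncRNA that triggers decay of the microRNA miR-7, showed the same kind of divergence tail to tail with Oip5, whose product acts at the centromere. Its NR_015473.1 row was at 5.45, 5.44 and 5.60 CPM in PAC, 7.68, 10.3 and 8.88 in RS and 17, 17.8 and 15.9 in ES. Oip5 was at 25.4, 21.2 and 16.9, then 7.80, 8.85 and 8.56, then 6.05, 6.79 and 6.10 CPM. The transcript rose at each step, by 0.70 (SE 0.16, edgeR adjusted p = 0.00233) and 0.92 (SE 0.16, edgeR adjusted p = 0.000714) on the log2 scale, and Oip5 fell from PAC to RS by 1.33 (log2 fold change -1.33, SE 0.18, edgeR adjusted p = 4.6e-05). Per kilobase, Oip5 was above Oip5os1 in PAC, at 14.3 ± 2.72 against 3.71 ± 0.104 FPKM, and below it in ES, at 3.54 ± 0.544 against 9.49 ± 1.14 (SD, n = 3).

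**Figure D4:**
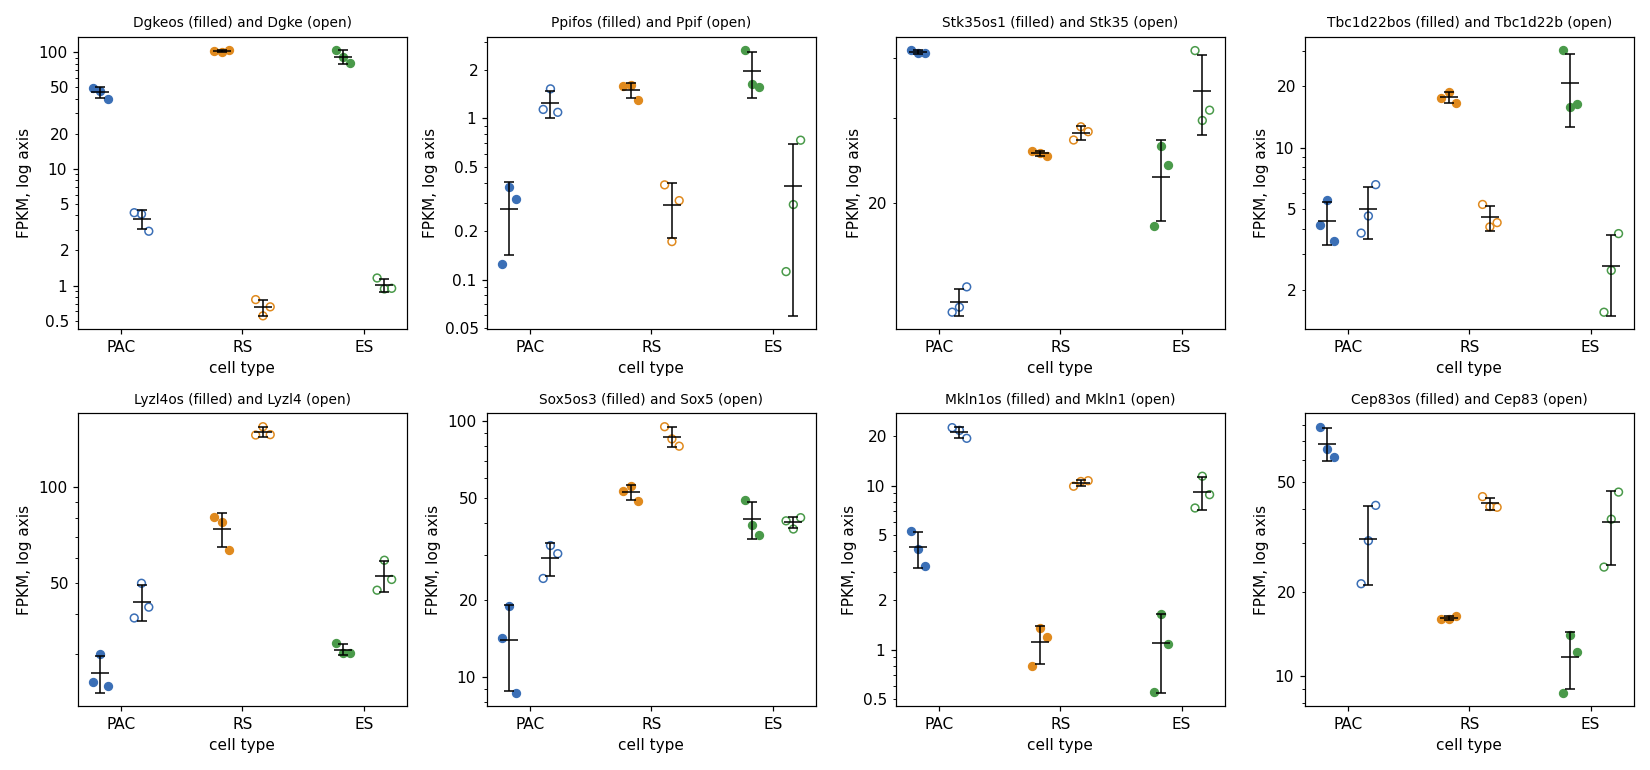
FPKM of antisense transcripts (filled) and their sense genes (open) in the 3 libraries of each cell type. The top row holds 4 pairs called in opposite directions. The bottom row holds 3 pairs called in the same direction and the pair of Cep83os and Cep83. Cep83os was called lower in RS and ES than in PAC, and no change of Cep83 was called. Points are libraries, horizontal bars are means and error bars SD, on log axes. Dgkeos and Dgke part from PAC to RS, whereas Lyzl4os and Lyzl4 peak together in RS.

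Between RS and ES, a comparison that shares its RS libraries with the first, 11 antisense transcripts of 73 were higher in ES and 9 lower, against 24.5% and 22.1% of all features. The median was 0.07, and 0.05 over all features. Of the 60 sense genes, 17 were higher and 9 lower. The 11 that rose were Rsf1os1, Slfn5os, Grip1os1, Rab10os, Zbtb11os1, Fam120aos, Saxo1os, Sp3os, Fam219aos, Hoxd3os1 and Oip5os1. Rab10os, in the gene of the membrane traffic GTPase Rab10, was at 7.05, 5.83 and 6.39 CPM in PAC, 6.12, 7.06 and 5.43 in RS and 20.2, 12.2 and 11.4 in ES. Zbtb11os1, head to head with the zinc finger gene Zbtb11, was at 6.07, 4.79 and 5.08, then 4.52, 5.35 and 5.37, then 13.0, 10.3 and 11.2 CPM. Both were level until RS and then rose, by 1.24 (SE 0.23, edgeR adjusted p = 0.00113) and 1.17 (SE 0.18, edgeR adjusted p = 0.000329) on the log2 scale.

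The 9 that fell were Rab11fip4os2, Map2k3os, Ggnbp2os, Dlx6os1, Ccdc34os, Lyzl4os, Stamos, Etaa1os and Vax2os. The call of Etaa1os (NR_131915.1, edgeR adjusted p = 0.0149) was lost without RS replicate 1 or 2 and with DESeq2 size factors (edgeR adjusted p = 0.0535). Its other row was not called. Rab11fip4os2, at the gene of a Rab11 effector, was highest in RS, at 2.32, 1.69 and 1.34 CPM against 0.664, 0.563 and 0.768 in PAC and 0.382, 0.336 and 0.571 in ES. It rose from PAC to RS (log2 fold change 1.44, SE 0.35, edgeR adjusted p = 0.00292) and fell again to ES (-2.03, SE 0.37, edgeR adjusted p = 0.000994). Ccdc34os, at a gene of the sperm flagellum, behaved alike, at 2.65, 2.77 and 2.01 CPM in PAC, 7.94, 8.30 and 5.57 in RS and 2.78, 2.81 and 2.86 in ES (edgeR adjusted p = 8.74e-05 for the rise and 0.000472 for the fall). Their sense genes did not peak in RS: Rab11fip4 was at 16.6 ± 1.15, 9.40 ± 0.730 and 11.6 ± 0.0758 CPM and Ccdc34 at 11.2 ± 1.83, 7.60 ± 0.210 and 5.19 ± 1.42 (SD, n = 3). The fall of Ccdc34 from PAC to RS (edgeR adjusted p = 0.0317) was lost without PAC replicate 2 or 3 or any RS library. It was lost too with upper-quartile factors (edgeR adjusted p = 0.29) and with limma on FPKM (limma adjusted p = 0.197).

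Dlx6os1, known as Evf2 from its work on homeobox genes in the forebrain, was at 0.381, 0.740 and 1.15 CPM in PAC, 1.78, 2.27 and 2.10 in RS and 0.442, 0.683 and 1.24 in ES. Its fall from RS to ES (log2 fold change -1.39, SE 0.45, edgeR adjusted p = 0.0247) was lost without RS replicate 2 or 3 or ES replicate 1 or 2. Map2k3os, beside the gene of a stress-activated kinase kinase, fell from 1.02 ± 0.306 to 0.337 ± 0.184 CPM (SD, n = 3), a call lost without RS replicate 1 or 2 or ES replicate 1 (edgeR adjusted p = 0.0219 with all libraries). Stamos and Stam, of the endosomal sorting machinery, fell together from RS to ES (edgeR adjusted p = 0.0225 and 0.0238). The call of Stamos was lost without RS replicate 2 or ES replicate 2 or 3, and that of Stam without RS replicate 1 or 3 or ES replicate 1 or 3. Both calls were lost with DESeq2 size factors too (edgeR adjusted p = 0.0699 and 0.0566), and that of Stamos with DESeq2 (DESeq2 adjusted p = 0.0593). Vax2os had no count in any ES library, where 3 counts correspond to 0.133 to 0.162 CPM, and was at 0.364, 1.15 and 1.04 CPM in PAC and 0.683, 0 and 0.504 in RS.

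Between PAC and ES, a comparison that shares its PAC libraries with the first, 23 antisense transcripts were higher in ES and 21 lower, against 30.6% and 33.7% of all features. With upper-quartile factors the split was 30 higher and 14 lower. Of the head-to-head transcripts 4 were higher and 14 lower of 30, and of the overlapping ones 16 were higher and 3 lower of 34. The sense genes gave 17 higher and 26 lower of 60. St8sia3os, at a sialyltransferase gene of gangliosides, was at 0, 0.256 and 0.144 CPM in PAC, 0.753, 0.874 and 0.818 in RS and 2.59, 1.69 and 1.89 in ES (log2 fold change 3.95 from PAC to ES, SE 0.63, edgeR adjusted p = 0.000185). Kif16bos, which starts 1356 bp from the start of the endosomal kinesin gene Kif16b and points away from it, went from 6.14 ± 0.579 CPM in PAC to 18.2 ± 1.82 in RS, and was at 52.9, 18.2 and 21.6 in ES, ES replicate 1 being the high one. Its log2 fold change from PAC to ES was 2.33 (SE 0.36, edgeR adjusted p = 0.000217), opposite in sign to that of Kif16b (-0.44, SE 0.16, edgeR adjusted p = 0.0309), whose call was lost without PAC replicate 3 or ES replicate 1. The Kif16b call was also lost with upper-quartile factors (edgeR adjusted p = 0.455) and DESeq2 size factors (0.0579). A filter of 50 counts (edgeR adjusted p = 0.0694) and a fit of those 2 cell types alone (0.298) lost it too.

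Taking the 3 comparisons jointly, 56 of the 73 tested antisense transcripts were called at least once and 17 never. PAC was above both other stages for 14 transcripts, RS for 5 and ES for 8, and no stage was above both others for 46, which is 19.2%, 6.85%, 11% and 63% of those tested. Over all 26030 features the shares were 25.4%, 13.4%, 13.3% and 47.9%, and over the other NR_ rows 22.4%, 15.3%, 9.67% and 52.6%. The sense genes gave 22, 4, 10 and 24 of 60. Among the 73 tested, 30 transcripts were head to head and 34 overlapping. Of the 14 antisense transcripts highest in PAC, 10 were head to head, and 7 had a sense gene that was highest in PAC too. The 10 and the 7 each count both rows of Etaa1os, and 36.7% of all tested sense genes were highest in PAC. Of the 8 highest in ES, 5 were overlapping, and 1 had a sense gene highest in ES, Grip1os1. The 5 highest in RS were Ccdc34os, Dlx6os1, Ggnbp2os, Lyzl4os and Rab11fip4os2, of which Lyzl4os had a sense gene highest in RS.

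In 7 genes more than 1 transcript passed the count minimum, and estimated counts of such rows are divided among overlapping isoforms. The 3 Tmem132cos rows, inside a gene of the Tmem132 membrane protein family, rose alike from PAC to RS, by 1.51 to 2.02 on the log2 scale, while Tmem132c was not called (edgeR adjusted p = 0.098). Both Etaa1os rows were lower in ES than in PAC, the call of NR_131916.1 being lost with upper-quartile factors (adjusted p = 0.0801) and in a fit of those cell types alone (0.0783). Both Atad3aos rows were lower too, with log2 fold changes of -2.17 and -1.09, but the call of NR_027972.1 (edgeR adjusted p = 0.0394) was lost on leaving out any ES library, PAC replicate 1 or 2, or RS replicate 3, and in 5 other alternatives. The rows of Frs3os were called in no comparison. The second Oip5os1 row, NR_027832.1, went the other way from the first, at 2.06 ± 0.139 CPM in PAC and 1.07 ± 0.422 in ES (SD, n = 3, log2 fold change -0.95, edgeR adjusted p = 0.0293). That call was lost without PAC replicate 1 or 3 or ES replicate 3, and the rows summed gave a rise of 1.25. Upper-quartile factors (edgeR adjusted p = 0.126) and a fit of those 2 cell types alone (0.115) lost that call as well. Ggnbp2os, head to head with a gametogenetin-binding protein gene, had a main row, NR_131197.1, at 2.02 ± 0.215, 3.52 ± 0.156 and 1.26 ± 0.328 CPM (SD, n = 3) and a minor row, NR_131201.1, at 0.193 ± 0.183 to 0.733 ± 0.392. The rise of the main row from PAC to RS (edgeR adjusted p = 0.0112) was not called when the rows were summed. The minor Rbm46os row, NR_040381.1, was at 0 in 1 PAC and 1 ES library and was called in no comparison.

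For 6 antisense genes the sense gene was too low to test. Hoxd3os1, in the homeobox cluster, was at 19.8, 18.1 and 16.4 CPM in PAC, 14.1, 13.0 and 13.3 in RS and 25.3, 18.5 and 23.4 in ES, while Hoxd3, a body-axis homeobox gene, did not exceed 0.355 CPM in any library. Its rise from RS to ES was 0.73 on the log2 scale (SE 0.16, edgeR adjusted p = 0.0028), and its fall from PAC to RS, -0.43 (edgeR adjusted p = 0.0296), was lost when any PAC or RS library other than PAC replicate 3 was left out. That fall was also not called with upper-quartile factors (edgeR adjusted p = 0.543), with no filter (0.0603) or with a filter of 50 counts (0.0518). Dbhos was at 1.18, 0.971 and 2.77 CPM in PAC and 0.273, 0.606 and 0.667 in ES (edgeR adjusted p = 0.0115, lost without PAC replicate 3), and Dbh, the enzyme that makes noradrenaline, did not exceed 0.0904 CPM. Ctcflos and its partner Ctcfl, the germ cell paralogue of the insulator protein CTCF, stayed under 1 CPM in every library, and no change of Ctcflos was called. Dlx6 and Fzd10, a Wnt receptor gene, were at or below 0.410 and 0.216 CPM. Fzd10os and Tnk2os were themselves too low to test.

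For 2 pairs the sense gene is expressed mainly outside the germ line. Il1b encodes the cytokine interleukin 1 beta, and Il1bos was at 0.498, 0.694 and 0.973 CPM in PAC, 0.362, 0.137 and 0.204 in RS and 0, 0.0888 and 0.0946 in ES. Il1b was at 0.0622, 0.0365 and 0.0721, then 0.814, 0.874 and 0.730, then 0.973, 0.622 and 0.852 CPM. The opposed changes from PAC to ES were -3.41 for Il1bos (SE 0.75, edgeR adjusted p = 0.00189) and 3.73 for Il1b (SE 0.52, edgeR adjusted p = 6.42e-05) on the log2 scale. Few reads lie behind both. The 13 macrophage and blood markers, none at 0 in any stage, summed to 10.3 to 14.6 CPM in PAC, 21.6 to 25.6 in RS and 156 to 240 in ES, and 9 of the 11 tested were higher in ES than in PAC. Their part in the Il1b values was not tested. Wt1, the Sertoli cell transcription factor, was at 2.05, 1.35 and 0.793 CPM in PAC, 0.0904, 0.137 and 0.146 in RS and 6.76, 9.50 and 9.42 in ES, in the order of the Sertoli sums of 66.6 to 163, 56.4 to 62.5 and 463 to 549 CPM. Wt1os, starting 19 bp from Wt1, was at 0.395, 0 and 0, then 0.244, 0.257 and 0.121, then 0.666, 0.503 and 0.578 CPM, and no change of it was called (edgeR adjusted p = 0.671, 0.214 and 0.0974). All 16 tested Sertoli markers, of 17 listed, were higher in ES than in RS and in PAC, and 1 was at 0 in RS. Wt1 is itself in that list, so its match with the list is partly built in. The part of Sertoli cells in these values was not tested.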

How the data were processed

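RNA of PAC, RS and ES libraries, 3 each, was measured by ribosomal-RNA-depleted, dUTP-stranded sequencing per the labels' protocols. The authors deposited estimated counts and FPKM values for the same features. HISAT2, StringTie and GRCm38.p6 are named per the submitters' processing notes. The strand setting of the counting is not stated. In the deposited estimated counts, 18.85% of values were not whole, so counts were rounded before testing.

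NR_ rows were matched to RefSeq symbols (GRCm38.p6) by accession. Of 2504 rows, 2365 matched, 96 matched without version and 43 did not, and 2 members (Dlx6os1 and Vax2os) matched without version. Changes were tested with edgeR 4.0.16 (R 4.3.3): TMM, filterByExpr with a minimum count of 10, robust quasi-likelihood fit over all 9 libraries, Benjamini-Hochberg adjustment over 26030 features. The common biological coefficient of variation was 0.24. P-values measure the spread between these libraries only, which are called biological replicates but not stated to come from separate mice. Antisense and sense levels were compared only with the FPKM the authors deposited, as log2((antisense + 0.01)/(sense + 0.01)) per library. Strands came from the RefSeq promoter table, else GENCODE M21, which also gave exon overlaps.

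The members, lists and tests were chosen with earlier results of these data known. Transcripts named were the 10 genes with the highest mean FPKM, up to 5 called per comparison and direction with the largest fold change and at least 1 CPM, up to 12 opposed pairs, up to 5 same-direction pairs per comparison, genes with several rows and genes whose partner was not tested. Of the transcripts named by this rule, 1 is not reported here. Others named (Kcnmb4os2, Tomm6os, Sp3os, Vax2os, Wt1os, Fam219aos, Tnk2os) were chosen after their values were seen. Alternatives were other scaling (DESeq2 1.42.0 size factors, upper quartile), DESeq2, limma 3.58.1 on FPKM, other filters, 2-cell-type fits, a replicate block, summed rows, each library left out and other start distances. On simulated data, 90 of 100 genes changed 4-fold and 40 of 100 changed 2-fold were recovered for RS against PAC among 25403 genes. The changed genes were drawn from features averaging more than 1 CPM, so recovery at lower levels was not measured.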

Additional observations from a re-analysis of the deposited data

How the results depend on the processing

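The called changes of named genes were followed through 18 alternatives. Of 159, 115 were kept in every alternative fitted and 44 were lost in at least 1; 33 were lost in some fit without a library, 15 of 89 antisense and 18 of 70 sense changes. With the NR_ rows of a gene summed, which by construction gives a minor row the change of its gene, the sign turned for Ggnbp2os NR_131201.1 (ES against RS, -1.17), Oip5os1 NR_027832.1 (0.53, 0.72 and 1.25 for RS against PAC, ES against RS and ES against PAC) and Rbm46os NR_040381.1 (-1.28 and -1.44 against PAC). For the other shifts in counts the cause was not tested. Upper-quartile factors gave 23 higher and 17 lower sense genes for RS against PAC and 13 lower for ES against PAC, and 1 overlapping transcript lower in RS. A filter of 50 counts, which tests fewer transcripts, left 10 antisense transcripts lower in RS and 13 lower in ES than in PAC, with 0 and 1 of the overlapping ones lower; no filter left 1 overlapping transcript lower in RS. Fits of 2 cell types alone gave, for ES against PAC, 12 antisense transcripts and 13 sense genes lower, 8 head-to-head transcripts lower and 5 opposed pairs, and 8 same-direction pairs for ES against RS. For ES against RS, limma on FPKM, which carries no TMM scaling, gave 22 antisense transcripts lower, 8 sense genes higher and 19 lower, 7 opposed and 10 same-direction pairs, and 5 overlapping transcripts lower in ES than in PAC; DESeq2 and its size factors each gave 2 opposed pairs. Start limits of 200 and 5000 bp, chosen after the data were seen, gave 6 and 1 overlapping transcripts lower in RS, and 6 and 1 lower in ES, than in PAC.

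Leaving out 1 library gave, for ES against RS, 0 to 2 opposed pairs (0 without RS replicate 1 or 3, 2 without PAC replicate 1 or 3 or ES replicate 1), 2 to 8 same-direction pairs (2 without each RS library in turn, 3 without ES replicate 2, 8 without PAC replicate 1), 10 to 18 sense genes higher (10 without RS replicate 1, 11 without RS replicate 2) and 5 to 10 antisense transcripts lower (5 without RS replicate 2). For RS against PAC, 1 to 3 overlapping transcripts were lower, and it was 1 on leaving out PAC replicate 2 or either of RS replicates 2 and 3. Libraries with the same replicate number did not deviate together throughout (r from -0.0914 to 0.488), so the numbers were not taken as pairs; with the replicate block, 9 same-direction pairs were called for ES against RS in place of 5, and the other counts stayed within 1.5 times. Low levels limit the precision: 3 counts correspond to 0.0819 to 0.162 CPM.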
